A study of Mus musculus with 6 samples.

Results

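The genes described here are 28 genes of cholesterol biosynthesis and sterol control, out of 35673 gene symbols in a table of read counts from mouse cornea. They were chosen from the symbol column by name, with no measured value in the rule, and all 28 were found and all 28 passed the filter on low counts, which kept 18804 genes. The set is a selection of the pathway, not the whole of it. The study sequenced RNA from 3 libraries titled Cationorm and 3 titled Control. Cationorm is an eye drop made of positively charged oil droplets in water, and the labels describe it as given at 5 µL per eye and 2 times a day for 14 days, in a contact lens dry eye model. That model combined 0.1% benzalkonium chloride, an eye-drop preservative known to be toxic to surface cells, with 6 h of lens wear per day. All 6 libraries come from male C57BL/6J mice aged 6 to 8 weeks, with no other allele named, and every one carries the tag CLDE, the model's abbreviation. The labels therefore do not settle whether Control stands for untreated mice or for an arm of the model, and each name is used as in the titles. Nothing states that the libraries of a group come from separate animals, so p-values measure the spread between these libraries, which may be technical.

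Cholesterol is built from acetyl-CoA in the cytosol and the endoplasmic reticulum. Mevalonate is made and turned into isoprene units, the isoprene units are joined to squalene, squalene is closed to lanosterol, and lanosterol is trimmed to cholesterol. When membrane sterol is low, the escort protein SCAP carries SREBP2 to the Golgi, where it is cut to an active transcription factor for most of these enzymes, and INSIG proteins hold SCAP back when sterol is plentiful. Excess sterol is esterified, or exported by ABC transporters whose genes are targets of the LXR oxysterol receptors.

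No sterol gene passed the test between Cationorm and Control. Of the 18 synthesis enzymes, 15 had a level above Control in the fit (83.3%, against 51.2% of all genes), at most 1.27-fold (Acat2). Some of these had a log2 fold change near 0, and Hmgcs1, Cyp51 and Msmo1 fell below 0 with library size alone as scaling. The efflux genes Abca1 and Abcg1 and the receptor gene Nr1h2 all had a level below Control. edgeR's quasi-likelihood test called 0 of the 28 genes, against 0 of 18804 genes tested (0%), and the smallest adjusted p of a sterol gene was 0.550. DESeq2 called 0 of the 28 as well, against 55 of the 14426 genes to which it gave an adjusted p (0.381%), with a smallest adjusted p of 0.0598, for Acat2. The median log2 fold change was 0.09 over the 28 genes and 0.01 over all genes tested, and 75.0% of the sterol genes against 51.2% of all genes lay above 0. At an unadjusted p under 0.05 there were 6 sterol genes, all higher in Cationorm (21.4%), against 5.16% of all genes higher and 3.57% lower. When 1 library was left out, it was 9 sterol genes and 2900 genes in all without Cationorm 3, and 7 and 2872 without Control 3, against 6 and 1641 with every library. Without Control 2 it was 3 sterol genes and 897 in all, without Cationorm 1 it was 2 and 723, without Cationorm 2 it was 1 and 805, and without Control 1 it was 1 and 755. These genes are abundant, and the median standard error of a log2 fold change was 0.08 for them and 0.16 for all genes. The part of abundance in the share at a low p was not tested. Groups did not overlap in 6 sterol genes, all higher in Cationorm (21.4%), against 8.73% of all genes higher and 6.09% lower. Genes of a pathway vary together, so these shares are given as a description.

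**Figure D1:**
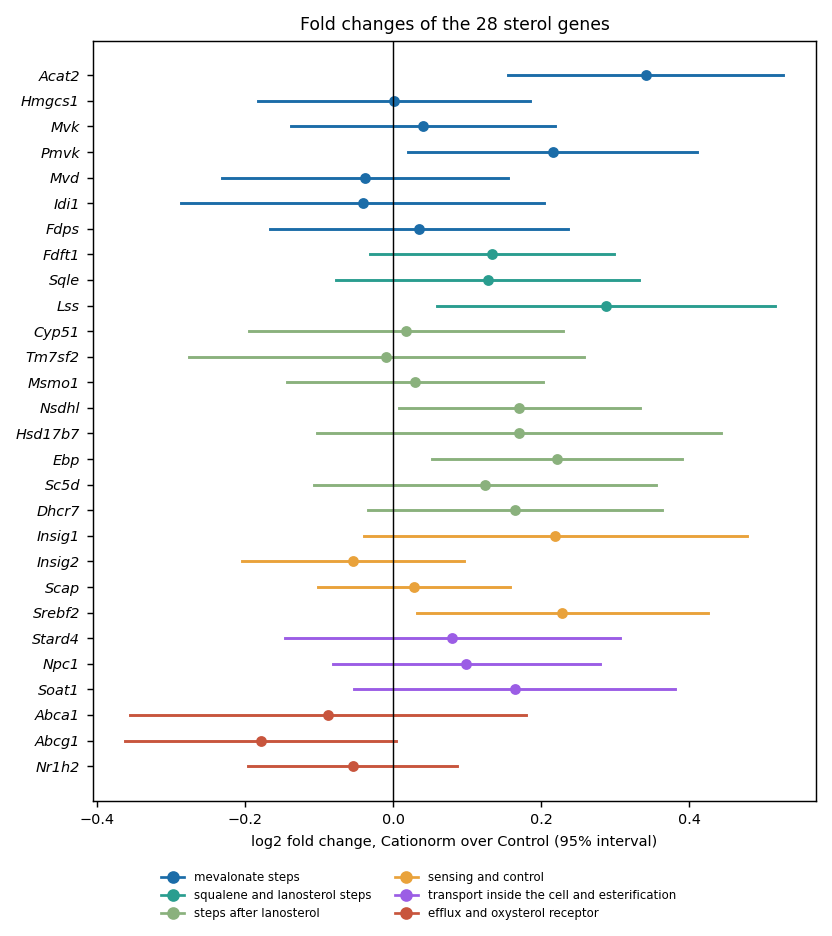
Log2 fold change of each sterol gene, Cationorm over Control, with its 95% interval from the edgeR fit; colours mark the role and genes run down the page in the order of the pathway. Acat2 at 0.34 lies farthest to the right and Abcg1 at -0.18 farthest to the left, and no gene passed the test over all genes.

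Library depth ran from 32486043 to 39193311 counts, and a sterol gene had between 594 counts (Soat1) and 18884 counts (Fdps) in a library, so counting error was at most 4.10%, taking each count as independent. Levels below are TMM-normalised CPM, that is, counts scaled to a common library size. The labelled tissue was borne out by its markers, with Krt12, the keratin of corneal epithelium, at 8508 to 9068 CPM in Cationorm and 8343 to 8831 CPM in Control. RNA of other eye tissues was present as well. The 10 retina markers, none of them at 0, summed to 1920 to 6110 CPM in Cationorm and 4960 to 7410 CPM in Control. The 10 iris and pigment markers, none at 0, summed to 1210 to 1540 CPM in Cationorm and 442 to 1100 CPM in Control, with no overlap. The 5 corneal endothelium markers summed to 1150 to 1280 CPM in Cationorm and 1060 to 1120 CPM in Control, also without overlap. The 9 lens markers found summed to 1670 to 6350 CPM in Cationorm and 80.5 to 3120 CPM in Control. For skeletal muscle the sum of 10 markers was 85.8 to 2340 CPM in Cationorm and 124 to 1330 CPM in Control, and of these only Tnnc2 was near 0. Meibomian gland cells, which make much sterol and wax ester, left little trace, since their 9 markers, of which 4 passed the filter, summed to 5.55 to 6.35 CPM in Cationorm and 5.16 to 5.75 CPM in Control, and Awat1, a wax ester synthase of that gland, had 2 counts in Control 2 and none elsewhere. In tissue samples like these, fewer cells of a type and less RNA per cell cannot be told apart.

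The mean of the 28 genes and the retina signal put the 6 libraries in opposite orders. Expressed as log2 CPM less the mean of the 6 libraries, it was 0.06, 0.10 and -0.03 in Cationorm 1 to 3, against -0.09, -0.04 and 0.01 in Control 1 to 3. The retina markers summed to 2450, 1920 and 6110 CPM in Cationorm 1 to 3, against 7410, 6450 and 4960 CPM in Control 1 to 3. From Cationorm 2, with the highest sterol mean, through Cationorm 1, Control 3, Cationorm 3 and Control 2 to Control 1, with the lowest, the retina sum was higher at every step. Cationorm 3 was the lowest Cationorm library in 20 of the 28 genes, and Control 1 the lowest Control library in 17. The retina comparison was not planned, and not every marker list is set against the sterol mean here. The iris and pigment sums and the corneal endothelium sums parted the groups fully, which the sterol mean did not. Retina was not the only list to run with the sterol mean. In Cationorm 1 to 3 the 6 myelin and Schwann cell markers summed to 272, 273 and 248 CPM. In Control 1 to 3 they summed to 229, 224 and 251 CPM. Their order matched that of the sterol mean except that Control 1 and 2 changed places. The part of RNA of retina or of any other tissue in the sterol differences was not tested.

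**Figure D2:**
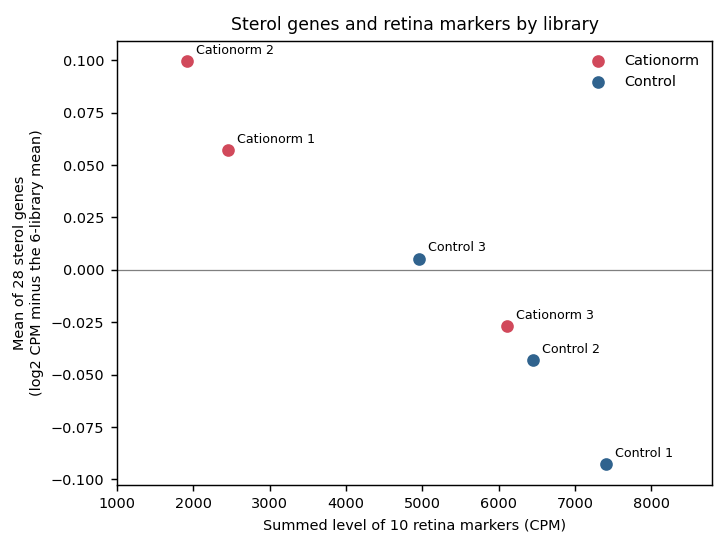
Mean of the 28 sterol genes (log2 CPM less the 6-library mean, vertical) against the summed level of 10 retina markers (CPM, horizontal), 1 point per library. The points run from Cationorm 2 at 1920 CPM and 0.10 down to Control 1 at 7410 CPM and -0.09, and the groups overlap on both axes.

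Promoters are shown because the synthesis genes are textbook targets of SREBP2, which acts beside NF-Y, a factor that binds CCAAT, and Sp1. RefSeq windows of 300 bases on GRCm38.p6, from 250 before to 50 after a start site, matched 22 of the 28 genes by symbol. Both strands were searched for the sterol response element TCACNCCAC, the NF-Y motif CCAAT, the E-box CACGTG and the Sp1 motif GGGCGG. Within a window, no 2 of the 91 matches overlapped. The Scap windows overlap each other, so an E-box and an Sp1 site that lie in both are counted in each. A gene counted if any of its windows matched. CCAAT was found in 18 of 22 genes (81.8%), against 42.3% of the tested genes with a window and 41.1% of all 27025 genes with a window. The Sp1 motif was found in 20 of 22 (90.9%), against 64.0% of tested genes and 38.2% of all genes. For the E-box it was 6 of 22 (27.3%), against 10.8% and 8.09%. TCACNCCAC was in 1 window, that of Hmgcs1 (4.5% of the 22), against 1.45% of tested genes and 1.44% of all genes. Abca1, Acat2, Nr1h2 and Scap were the genes with no CCAAT. The 250 bases before the start are given for 5 genes, with the 4 motifs in capitals: Hmgcs1 for its sterol response element, Lss and Srebf2 as genes with an unadjusted p under 0.05, Insig1 as a feedback gene with CCAAT and E-box, and Abca1 for its lack of CCAAT. The last 30 bases of the Hmgcs1 window were not found in a GENCODE transcript of that gene, unlike those of the other 4.
Hmgcs1, chr13:119690101-119690350, plus strand: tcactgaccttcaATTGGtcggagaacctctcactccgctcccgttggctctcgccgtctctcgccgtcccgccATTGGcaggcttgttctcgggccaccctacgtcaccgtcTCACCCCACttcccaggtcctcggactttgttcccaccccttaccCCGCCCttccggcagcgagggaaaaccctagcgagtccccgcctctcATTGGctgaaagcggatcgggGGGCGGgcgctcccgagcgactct
Lss, chr10:76531355-76531604, plus strand: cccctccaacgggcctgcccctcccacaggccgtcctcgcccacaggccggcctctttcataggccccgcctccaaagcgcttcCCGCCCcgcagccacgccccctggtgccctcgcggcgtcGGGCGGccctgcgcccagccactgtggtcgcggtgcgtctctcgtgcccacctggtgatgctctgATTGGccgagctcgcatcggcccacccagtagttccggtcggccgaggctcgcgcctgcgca
Srebf2, chr15:82147019-82147268, plus strand: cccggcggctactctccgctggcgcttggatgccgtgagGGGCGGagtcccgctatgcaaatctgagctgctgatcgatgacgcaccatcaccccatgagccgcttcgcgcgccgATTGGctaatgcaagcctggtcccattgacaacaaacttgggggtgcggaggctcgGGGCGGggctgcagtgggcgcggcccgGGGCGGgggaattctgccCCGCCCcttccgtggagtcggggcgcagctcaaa
Insig1, chr5:28071162-28071411, plus strand: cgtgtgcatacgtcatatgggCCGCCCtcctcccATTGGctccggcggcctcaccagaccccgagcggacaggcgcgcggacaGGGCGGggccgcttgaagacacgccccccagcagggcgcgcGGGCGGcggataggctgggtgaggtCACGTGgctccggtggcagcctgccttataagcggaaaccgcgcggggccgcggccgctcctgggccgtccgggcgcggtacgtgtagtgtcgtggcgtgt
Abca1, chr4:53159896-53160145, minus strand: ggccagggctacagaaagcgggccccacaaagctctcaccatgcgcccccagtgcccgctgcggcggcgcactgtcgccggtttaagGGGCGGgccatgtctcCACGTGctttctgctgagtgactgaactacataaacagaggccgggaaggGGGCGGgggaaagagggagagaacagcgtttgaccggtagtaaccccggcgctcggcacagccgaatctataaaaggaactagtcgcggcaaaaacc
In the Hmgcs1 stretch the element TCACCCCAC begins 137 bases before the start, with NF-Y matches on either side of it. In Lss the NF-Y match, ATTGG on the printed strand, begins 62 bases before the start. These are matches of letters, with no measure of binding.

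The mevalonate enzymes divided into a pair with higher levels in Cationorm and 5 near equality. Acat2, the cytosolic thiolase that joins acetyl-CoA units at the head of the pathway, was at 72.0, 79.6 and 74.0 CPM in Cationorm 1 to 3, against 54.3, 63.4 and 60.5 CPM in Control 1 to 3. Every Cationorm library lay above every Control library. The log2 fold change was 0.34 ± 0.08 (SE, 95% interval 0.15 to 0.53), with an adjusted p of 0.550 in edgeR. Among the sterol genes this was the largest difference and the smallest unadjusted p, at 0.00333. Its close relative Acat3, which could share reads with it, was at only 0.848 CPM in Cationorm and 0.500 CPM in Control. Pmvk, the phosphomevalonate kinase, was at 44.9, 45.4 and 38.6 CPM in Cationorm 1 to 3, against 36.4, 38.4 and 36.2 CPM in Control 1 to 3. These groups were apart by a narrow margin, between Cationorm 3 and Control 2, and the log2 fold change was 0.22 ± 0.08 (SE), with an edgeR adjusted p of 0.550.

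Hmgcs1, the HMG-CoA synthase that commits acetyl units to the pathway and a classic SREBP2 target, showed no such difference. It was at 442, 437 and 388 CPM in Cationorm 1 to 3, against 400, 452 and 414 CPM in Control 1 to 3, with Control 2 the highest of all and Cationorm 3 the lowest. Its log2 fold change of 0.00 ± 0.08 (SE) has an interval of -0.18 to 0.185, which leaves room for a change of the size seen in Nsdhl but not for that of Acat2. Set against Hmgcs1 inside each library, which removes the scaling, Acat2 stood at a ratio of 0.163, 0.182 and 0.191 in Cationorm 1 to 3, against 0.136, 0.140 and 0.146 in Control 1 to 3. This ratio, chosen after the values were seen, did not overlap between the groups. Fdps, the farnesyl diphosphate synthase, was the most abundant sterol gene per kb of exon, at 108 ± 9.43 CPM per kb in Cationorm and 106 ± 7.50 CPM per kb in Control (SD, n = 3 each). Its libraries had 439, 501 and 427 CPM in Cationorm 1 to 3, against 421, 480 and 432 CPM in Control 1 to 3, a log2 fold change of 0.03 ± 0.09 (SE) with wide overlap. Mevalonate kinase (Mvk, 0.04 ± 0.08), mevalonate diphosphate decarboxylase (Mvd, -0.04 ± 0.08) and the isopentenyl diphosphate isomerase (Idi1, -0.04 ± 0.10) had log2 fold changes smaller than their standard errors (SE).

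**Figure D3:**
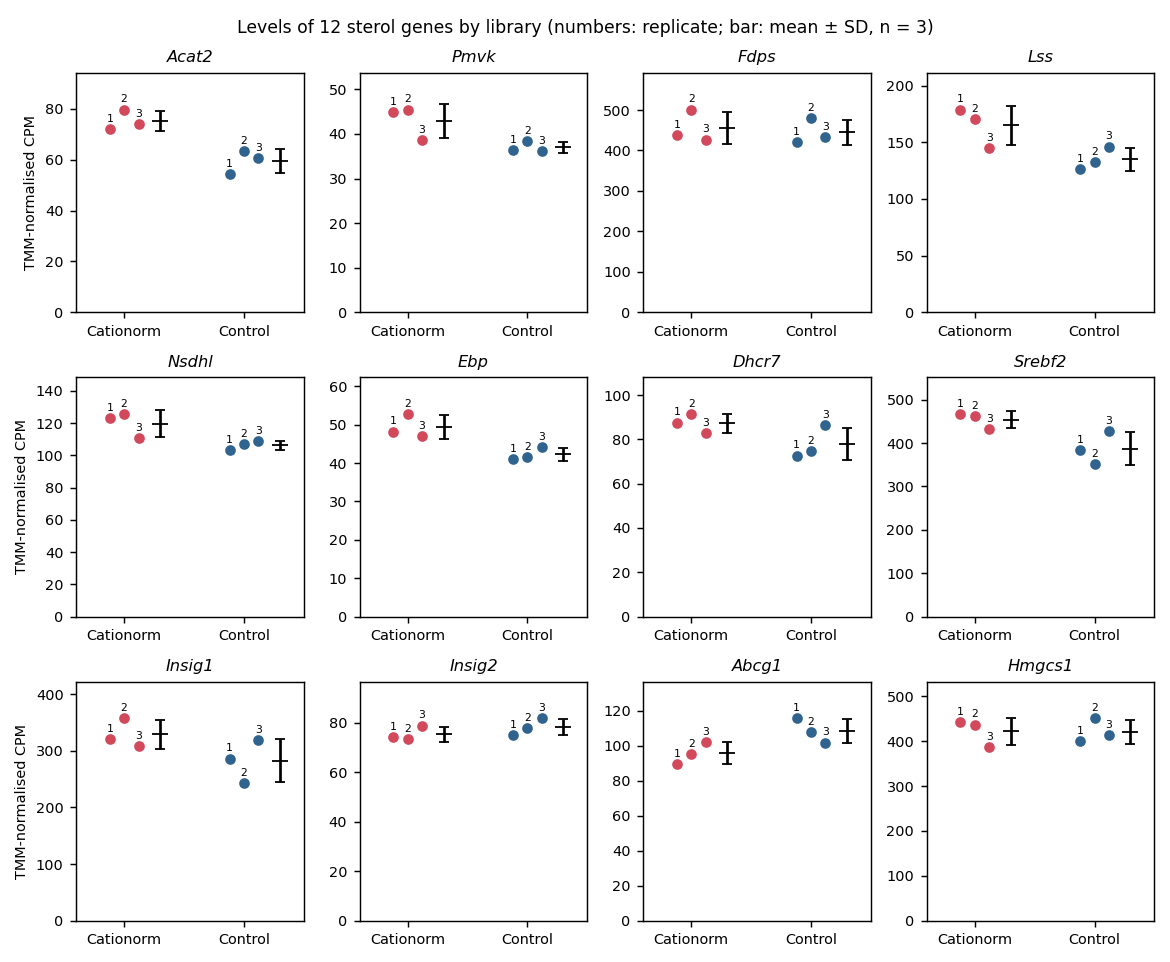
TMM-normalised CPM of 12 sterol genes in each library, numbered by replicate, with Cationorm left of Control and the mean ± SD (n = 3) beside the points; every axis starts at 0. Acat2, Pmvk, Nsdhl, Ebp and Srebf2 have no overlap between the groups, whereas Fdps, Hmgcs1 and Insig2 overlap widely.

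The 3 genes that make squalene and close it to lanosterol all had positive log2 fold changes, and none passed the test. Lss, the lanosterol synthase, was at 179, 171 and 145 CPM in Cationorm 1 to 3, against 126, 133 and 146 CPM in Control 1 to 3. Cationorm 3 lay just under Control 3, so the groups touched, although the log2 fold change was 0.29 ± 0.10 (SE, 95% interval 0.06 to 0.52, edgeR adjusted p = 0.550). Within each library the ratio of Lss to Hmgcs1 was 0.405, 0.391 and 0.374 in Cationorm 1 to 3, against 0.316, 0.294 and 0.353 in Control 1 to 3, again a ratio picked after the values were seen. Squalene epoxidase (Sqle), a slow step of the pathway, averaged 365 ± 29.2 CPM in Cationorm and 334 ± 26.5 CPM in Control (SD, n = 3 each), a log2 fold change of 0.13 ± 0.09 (SE). For squalene synthase (Fdft1) the log2 fold change was 0.13 ± 0.07 (SE), with 204 ± 11.8 CPM in Cationorm and 186 ± 9.40 CPM in Control (SD, n = 3 each). The Fdft1 value is uncertain, because 774 bases of its exons (18.3%) overlap those of the abundant cathepsin gene Ctsb on the other strand in GENCODE M21, and no strand setting is given. Ctsb was at 611 CPM in Cationorm and 558 CPM in Control, with a log2 fold change of 0.13.

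After lanosterol, 7 of 8 enzymes had a level above Control in the fit (87.5%, against 51.2% of all genes), some of them barely, and 0 passed the test. Ebp, the sterol isomerase, was at 48.2, 52.8 and 47.0 CPM in Cationorm 1 to 3, against 41.0, 41.6 and 44.3 CPM in Control 1 to 3. The groups did not overlap, with a log2 fold change of 0.22 ± 0.07 (SE, 95% interval 0.05 to 0.39, edgeR adjusted p = 0.550). Nsdhl, a dehydrogenase of the C4 demethylation complex, was at 123, 126 and 111 CPM in Cationorm 1 to 3, against 103, 107 and 109 CPM in Control 1 to 3. Again no library crossed over, with Cationorm 3 and Control 3 closest, and the log2 fold change was 0.17 ± 0.07 (SE). Dhcr7, the reductase of the last steps, was at 87.6, 91.5 and 82.8 CPM in Cationorm 1 to 3, against 72.6, 74.7 and 86.3 CPM in Control 1 to 3. Its groups overlapped through Control 3, and the log2 fold change was 0.16 ± 0.08 (SE). The reductase Hsd17b7 (0.17 ± 0.12) and the desaturase Sc5d (0.12 ± 0.10) had similar log2 fold changes with wider standard errors (SE). Cyp51, the lanosterol demethylase (0.02 ± 0.09), Msmo1, the C4 methyl oxidase (0.03 ± 0.07), and the reductase Tm7sf2 (-0.01 ± 0.11, SE) lay close to 0. Cyp51 had 175 CPM in Cationorm 3, lower than in any other library, so its Cationorm values spread more widely than its Control values (SD of 22.9 and 5.02 CPM).

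**Figure D4:**
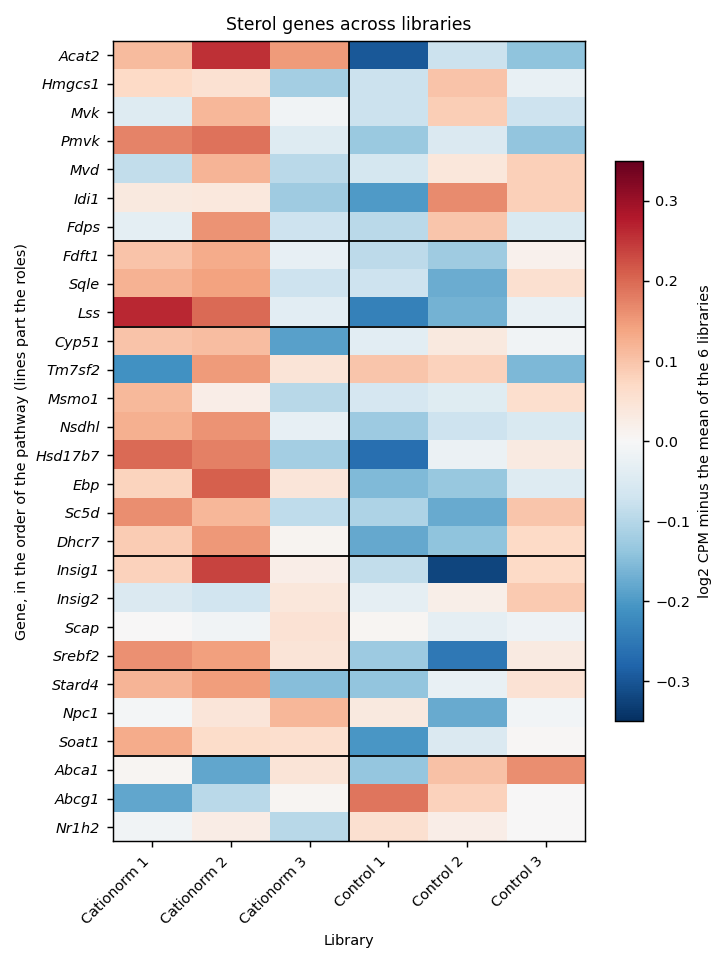
Log2 CPM of each sterol gene less its mean over the 6 libraries (red above, blue below), with Cationorm libraries left of Control libraries and lines between roles. Cationorm 2 is the highest library in 14 of 28 genes and Control 1 the lowest in 10, while the 3 rows at the foot run mostly the other way.

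Among the control genes, the factor and its feedback inhibitor differed more than their partners, without passing the test. Srebf2, which encodes SREBP2, was at 467, 462 and 432 CPM in Cationorm 1 to 3, against 383, 352 and 428 CPM in Control 1 to 3. The groups were apart by a narrow margin, between Cationorm 3 and Control 3, with a log2 fold change of 0.23 ± 0.08 (SE, 95% interval 0.03 to 0.425, edgeR adjusted p = 0.550). Insig1, the INSIG gene that SREBP2 itself induces, was at 321, 358 and 309 CPM in Cationorm 1 to 3, against 286, 243 and 319 CPM in Control 1 to 3. Control 3 lay within the Cationorm range, and the log2 fold change was 0.22 ± 0.11 (SE). Insig2, its paralog that depends less on SREBP2, was at 74.0, 73.2 and 78.8 CPM in Cationorm 1 to 3, against 75.1, 77.8 and 81.8 CPM in Control 1 to 3, a log2 fold change of -0.05 ± 0.06 (SE). The ratio of Insig1 to Insig2 within a library, picked after the values were seen, was 4.34, 4.89 and 3.92 in Cationorm 1 to 3, against 3.81, 3.12 and 3.90 in Control 1 to 3, so that Cationorm 3 and Control 3 were nearly equal. Scap was the steadiest sterol gene, with 1.06-fold between its highest and lowest library and a log2 fold change of 0.03 ± 0.05 (SE).

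Control 2 was the highest library in 2 of the 28 genes and the lowest in 7. Cationorm 3 was similar, highest in 2 and lowest in 6. Among SREBP2 targets, Control 2 had the highest Hmgcs1 (452 CPM) and Idi1 (102 CPM) of all 6 libraries. It had the lowest Insig1 (243 CPM), Srebf2 (352 CPM), Sqle (309 CPM), Fdft1 (179 CPM) and Sc5d (213 CPM). In Control 2 the basal keratin Krt14 was also highest, at 1789 CPM, against 673 to 1168 CPM in the other 5 libraries, and the 8 macrophage markers summed to 147 CPM, against 106 to 116 CPM in Cationorm and 82.1 and 118 CPM in Control 1 and 3. Whether the mix of cells had a part in this pattern was not tested. Without Control 2 the log2 fold change was 0.10 for Insig1, 0.14 for Srebf2, 0.06 for Sqle and 0.05 for Sc5d.

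Sterol transport and storage genes had small positive log2 fold changes with no call. Stard4, which carries cholesterol between membranes and is an SREBP2 target, had 0.08 ± 0.10 (SE). For Npc1, which lets cholesterol out of lysosomes, the value was 0.10 ± 0.08 (SE). Leaving out 1 library lowered these to 0.00917 for Stard4, without Cationorm 2, and to 0.02 for Npc1, without Control 2. Soat1, which esterifies cholesterol for storage, was with Abca1 one of the pair least abundant per kb, and was at 19.4, 18.5 and 18.5 CPM in Cationorm 1 to 3, against 15.4, 17.1 and 17.8 CPM in Control 1 to 3. The Soat1 groups did not overlap, with a log2 fold change of 0.16 ± 0.09 (SE) and an edgeR adjusted p of 0.566.

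The export side lay on the other side of 0, although the log2 fold changes of Abca1 and Nr1h2 were smaller than their standard errors. Abcg1, a transporter that exports cholesterol, was at 89.6, 95.3 and 102.2 CPM in Cationorm 1 to 3, against 115.7, 107.6 and 101.7 CPM in Control 1 to 3. Cationorm 3 and Control 3 crossed, and the log2 fold change was -0.18 ± 0.08 (SE, 95% interval -0.36 to 0.00367, edgeR adjusted p = 0.550). Cationorm 1 and 2 had the lowest Abcg1 and Control 1 the highest, as with the retina markers. The part of retina RNA in this difference was not tested. Abca1, which loads cholesterol onto lipoproteins, averaged 18.7 ± 1.55 CPM in Cationorm and 19.9 ± 2.10 CPM in Control (SD, n = 3 each), a log2 fold change of -0.09 ± 0.11 (SE). Nr1h2, which encodes LXR beta, averaged 101 ± 4.43 CPM in Cationorm and 105 ± 1.99 CPM in Control (SD, n = 3 each), a log2 fold change of -0.05 ± 0.06 (SE). The ratio of Srebf2 to Abcg1 in a library, also chosen afterwards, was 5.21, 4.85 and 4.23 in Cationorm 1 to 3, against 3.31, 3.27 and 4.21 in Control 1 to 3. Cationorm 1 and 2 had the highest ratio and Control 1 and 2 the lowest, with Cationorm 3 and Control 3 nearly equal between them.

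Per kb of exon, the sterol genes covered a wide range. Behind Fdps came Insig1, at 106 ± 8.24 CPM per kb in Cationorm and 91.4 ± 12.3 CPM per kb in Control, and Hmgcs1, at 91.9 ± 6.53 CPM per kb in Cationorm and 91.8 ± 5.83 CPM per kb in Control (SD, n = 3 each). Fdps and Insig1 were nearly equal in Cationorm, and Insig1 and Hmgcs1 in Control, so the place of Insig1 in this order depended on the group. At the low end, Soat1 was at 1.92 ± 0.0534 CPM per kb in Cationorm and 1.71 ± 0.125 CPM per kb in Control, and Abca1 at 1.80 ± 0.150 CPM per kb in Cationorm and 1.92 ± 0.202 CPM per kb in Control (SD, n = 3 each). Exon lengths are unions over all annotated transcripts, so the order rests on the annotation as well as on the counts.

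**Figure D5:**
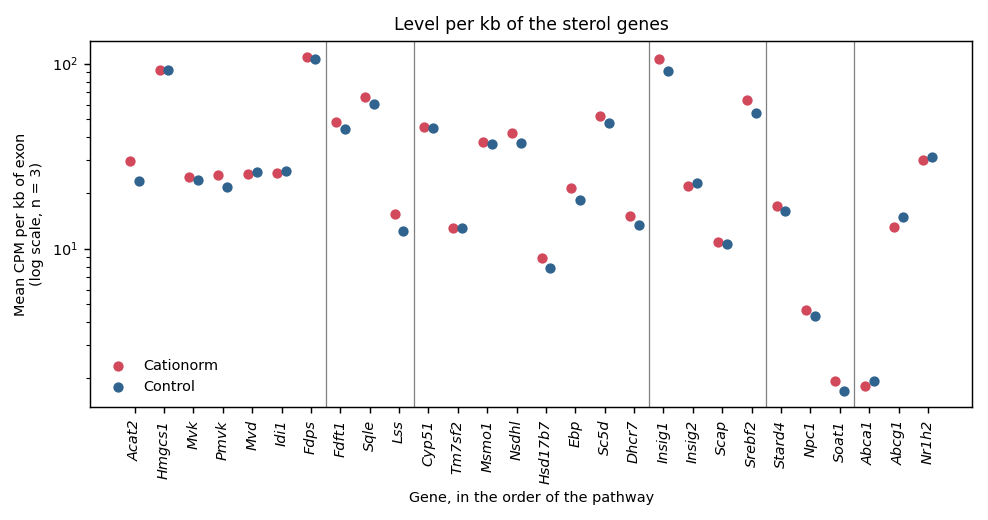
Mean level of each sterol gene in CPM per kb of exon (log axis, n = 3 libraries a group), Cationorm left of Control at each gene, in the order of the pathway with lines between roles. Fdps, Insig1 and Hmgcs1 lie highest, and Soat1 and Abca1 lowest.

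Further genes of the pathway gave 0 calls too. Of 15 genes of side branches, cofactors and further sterol steps, 14 were tested, of which 7 had a log2 fold change above 0 and 7 below (median 0.02). The smallest p among them belonged to Cyb5r3, a reductase that feeds electrons through cytochrome b5 to sterol enzymes. It was at 157, 160 and 149.7 CPM in Cationorm 1 to 3, against 141, 135 and 127 CPM in Control 1 to 3, a log2 fold change of 0.21 ± 0.07 (SE, edgeR adjusted p = 0.550) with no overlap. Cyb5b, a cytochrome b5, had a log2 fold change of 0.13 ± 0.07 (SE), and the sterol reductase Lbr had 0.14 ± 0.08 (SE). Faxdc2 had at most 4 counts in a library and was not tested.

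Of 27 genes of SREBP activation, sterol-driven degradation and sterol trafficking, 26 were tested, 16 above and 10 below 0 (median 0.05). Npc2, the partner of NPC1 in lysosomes, was at 147, 138 and 131 CPM in Cationorm 1 to 3, against 115, 112 and 127 CPM in Control 1 to 3, a log2 fold change of 0.23 ± 0.08 (SE, edgeR adjusted p = 0.550) without overlap. Gramd1a, which moves sterol from plasma membrane to endoplasmic reticulum, had -0.19 ± 0.08 (SE). Its groups did not overlap either, with 23.6, 26.3 and 27.9 CPM in Cationorm 1 to 3, against 29.7, 29.8 and 29.2 CPM in Control 1 to 3. The lysosomal lipase Lipa had a log2 fold change of 0.25 ± 0.13 (SE). Abcg4, a transporter related to ABCG1 and best known from neural tissue, was at 8.57 to 24.1 CPM in Cationorm and 20.1 to 28.4 CPM in Control, a log2 fold change of -0.73 ± 0.37 (SE). As with the retina markers, Cationorm 1 and 2 were its lowest libraries. Ch25h, which makes an oxysterol, was near the low end of detection, at 0.877 to 2.09 CPM in Cationorm and 0.346 to 1.28 CPM in Control. Soat2 had at most 10 counts in a library and was not tested.

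Values of a few other genes carry a limit of counting. In GENCODE M21, 9 of the 28 genes share exon bases with another gene, and 4 of these with a gene that was tested here. Besides Fdft1, these were Cyp51 with Akap9 (3.76% of its exon bases), Tm7sf2 with Vps51 (12.1%) and Npc1 with Rmc1 (4.52%). The log2 fold change was 0.17 for Akap9 and 0.02 for Cyp51, 0.08 for Vps51 and -0.01 for Tm7sf2, and -0.03 for Rmc1 and 0.10 for Npc1. Fdps shares 26.7% of its exon bases with the predicted gene Gm43738 on the same strand.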

How the data were processed

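Cornea RNA was isolated in TRIzol, and TruSeq libraries were built from its mRNA fraction, per the labels' protocols. The values analysed are the deposited counts, whole numbers for each gene symbol in each library, per the file headers. DESeq2, GRCm39 and mm39 are named without a role in the submitters' processing notes. Which aligner, counter, annotation and strand option were used is not given in the sources used here. Counts were filtered with filterByExpr and normalised by TMM, and Cationorm was tested against Control over all kept genes in edgeR 4.0.16 (R 4.3.3) by its quasi-likelihood test, without covariates, and p-values were adjusted by Benjamini-Hochberg with a threshold of 0.05. The procedure was tested on simulated data. Alternatives were other scalings, filters, DESeq2 1.42.0, limma-voom (limma 3.58.1), other-tissue and mitochondrial genes left out, a replicate block, and each library left out. The 6 libraries form a single batch, per the labels. Every pair of libraries differed by more than sampling noise (smallest chi-square over its degrees of freedom 14.8, for Control 3 with Cationorm 3). That pair, from different groups, also had the highest correlation of log2 CPM across genes (r = 0.990). Cationorm 3 correlated more closely with Control 1 to 3 (r = 0.984, 0.983 and 0.990) than with Cationorm 1 and 2 (r = 0.977 and 0.981). Exon lengths and overlaps come from GENCODE M21 (GRCm38), an older build, used for lengths and neighbours only.

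The genes, lists, tests and motifs were chosen with earlier results of these data known. Every one of the 28 genes is named. Values in every library are given for those with an unadjusted p under 0.05, the next 3 by p, the most abundant per kb, Insig1 and Insig2. Hmgcs1, Soat1 and the within-library ratios were added after the values were seen. The comparison of the sterol mean with the retina markers was not planned either. From each further list at most 5 genes are named, by smallest p. Some results that this rule would name are not reported here. A protein comparison of Insig1 and Insig2 was not made here.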

Additional observations from a re-analysis of the deposited data

How the results depend on the processing

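Under the 10 alternatives to scaling, filter, tool, gene set and pairing, 0 sterol genes were called, and the median log2 fold change of the 28 genes ran from 0.0552 (library size alone, 17 genes above 0) to 0.100 (limma-voom with sample weights, 22 above 0). DESeq2 called 55 genes in all, 48 higher and 7 lower, none of them a sterol gene, and the cause was not tested. In all 17 fits, 20 of the 28 genes kept their sign, 15 higher in Cationorm and 5 lower, Abca1, Abcg1 and Nr1h2 among the lower. Signs near 0 reversed. Hmgcs1 was at -0.00583 with DESeq2 size factors, -0.00604 with upper-quartile factors, -0.0327 with library size alone, -0.00166 with no filter, -0.00121 with the stricter filter and -0.00584 with DESeq2. With library size alone Cyp51 was at -0.0186, Msmo1 at -0.00531 and Scap at -0.00484, and with sample weights Idi1 was at 0.0395.

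Leaving out each library in turn gave 0 to 350 genes called in all, 350 without Cationorm 3, 8 without Control 3 and 1 without Control 2, and 0 sterol genes each time. The median of the 28 genes ran from 0.0492 without Cationorm 2 to 0.139 without Cationorm 3, with 17 to 22 genes above 0. Sterol genes at an unadjusted p under 0.05 numbered 1 to 9 in these fits, while all such genes numbered 723 to 2900, against 6 and 1641 with all libraries. With sample weights they numbered 10, and all such genes 3256. Ranges that crossed 0 were -0.0504 to 0.109 for Cyp51, -0.0543 to 0.0793 for Fdps, -0.0404 to 0.0594 for Hmgcs1, -0.140 to 0.0161 for Idi1, -0.0212 to 0.0828 for Msmo1, -0.0247 to 0.0767 for Mvk and -0.102 to 0.0871 for Tm7sf2. With the replicate block 0 genes were called (879 at an unadjusted p under 0.05, 3 of them sterol genes) and the median was 0.0887. The numbers share no stated source: same-numbered libraries had deviations correlated at -0.178, -0.306 and -0.163 across genes, and none correlated best with its own number.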
